A study of Rattus norvegicus with 4 samples.

Results

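The proteasome genes on a rat expression array were examined in pancreatic islets of growth-restricted and control pups. They were taken as all array probes whose gene symbol begins with Psma to Psmg followed by a number, without the immunoproteasome subunits Psmb8, Psmb9 and Psmb10. This gave 50 of the 30367 probes, for 45 genes. The array tested 20012 genes or unnamed probes in all, and every one of the 45 genes was among them. By textbook role, 14 genes encode the core particle and 17 the regulatory particle. The other 14 comprise 6 assembly chaperones, 4 activators, 1 inhibitor and 3 genes that match the symbol but stand apart.

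The animals were Sprague Dawley rats, and total RNA was taken from their islets at 14 days after birth. Intrauterine growth restriction (IUGR) was produced in 4 samples by tying off the uterine arteries on both sides at embryonic day 18, and the mothers of the 4 control samples had a sham operation. Each of 4 two-colour Agilent arrays held 1 IUGR and 1 control sample, with IUGR in Cy5 on arrays 1 and 2 and in Cy3 on arrays 3 and 4. The design text calls the samples biological replicates, but sex, litter and the number of animals per sample are not given in the labels. The p-values therefore measure the spread between these samples only. In whole islet RNA, fewer cells of a type and less RNA per cell cannot be told apart.

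The proteasome is the protease complex that degrades proteins tagged with ubiquitin. Its barrel-shaped core is built from rings of alpha and beta subunits, and beta subunits inside the barrel cut the peptide chain. The regulatory particle caps the barrel: its lid and base bind the ubiquitin tag, remove it, and unfold the substrate with ATPases. Insulin-secreting beta cells make and fold large amounts of protein, and they depend on the proteasome to clear misfolded proteins drawn out of the endoplasmic reticulum.

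Each probe is an oligonucleotide of 60 bases, so a measured ratio is that of the transcripts that bind this stretch. The following probes are shown because the catalytic subunits, the lid gene with the lowest p, and the genes with disagreeing probes are described through them. Each has at least 1 reading frame free of stop codons over its whole length, and coordinates are those of the array files on the rat assembly rn4.
Psmb5, chromosome 15, 32690134 to 32690193, minus strand: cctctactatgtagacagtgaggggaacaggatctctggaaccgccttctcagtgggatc
Psmb6, chromosome 10, 57371368 to 57371427, plus strand: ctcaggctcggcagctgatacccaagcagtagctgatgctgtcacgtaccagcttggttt
Psmb7, chromosome 3, 18413231 to 18433105, minus strand: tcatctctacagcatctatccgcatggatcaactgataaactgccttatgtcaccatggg
Psmd3, chromosome 10, 87466177 to 87466236, plus strand: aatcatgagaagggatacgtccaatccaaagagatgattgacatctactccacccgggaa
Psmd14, chromosome 3, 43696292 to 43699023, minus strand: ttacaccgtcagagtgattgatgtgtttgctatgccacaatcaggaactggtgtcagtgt
Psme4, brighter probe, chromosome 14, 111990483 to 111990542, plus strand: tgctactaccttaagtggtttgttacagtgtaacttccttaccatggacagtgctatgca
Psmf1, dimmer probe, chromosome 3, 142069091 to 142069150, minus strand: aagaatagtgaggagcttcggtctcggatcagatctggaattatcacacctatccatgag
The spans of the Psmb7 and Psmd14 probes are longer than the probes, so both cross at least 1 intron. For every one of the 45 genes the probe used was well above background in all 8 channels. Where a gene had several probes, the brightest stood for it.

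The arrays differed in ways that touch every gene. In median signal, the IUGR over control log2 ratio was 1.68 on array 1 and between -2.42 and -1.55 on arrays 2 to 4. Across all tested genes, which are not independent replicates, array 1 correlated with the other arrays at r from -0.30 to 0.13, while arrays 2 to 4 correlated with one another at 0.37 to 0.63. No spot was saturated. Of 9 beta cell marker genes 8 were tested, and all 8 were well above background in all 8 channels. Their mean ratios (log2) were 0.31, 0.98, 0.15 and -0.05 on arrays 1 to 4, and all 8 genes had a mean above 0. The 6 acinar marker genes had mean ratios (log2) of 0.37, 0.05, 1.74 and -0.29 from array 1 to array 4, and 6 T and NK cell genes had 0.03, -0.39, -1.58 and -0.89. The summed channel intensity of the acinar list was 447267 to 1021390 in the IUGR and 345702 to 755350 in the control samples, and that of the T and NK list 860 to 1088 and 1100 to 4961. Averaged over arrays, the means of the other lists were 0.53 for red cell, 0.27 for endothelial, 0.27 for macrophage, 0.07 for fibroblast and stellate, -0.03 for alpha cell, -0.37 for delta and PP cell, -0.42 for duct and -0.60 for B cell genes. The alpha cell and the delta and PP cell lists were above 0 on array 1 and below 0 on the other 3 arrays. The part of brightness and of other cell types in the proteasome ratios was not tested.

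No proteasome gene passed the test. At a Benjamini-Hochberg adjusted p under 0.05 in limma, 0 of the 45 genes were called, against a background of 0% of all tested genes. The lowest adjusted p of a proteasome gene was 0.339, which was also the lowest of any gene. At an unadjusted p under 0.05 there were 2 proteasome genes (4.44%), against 13.7% of all tested genes. They were Psmd3, higher in IUGR (2.22%, against 7.14% of all genes), and Psmc6, lower in IUGR (2.22%, against 6.55%). Once the part of each ratio that follows spot brightness was taken out (loess), the array files could nevertheless bound the size of a difference. The 95% interval of the mean ratio, unadjusted and from the moderated error of the same fit, lay within a log2 ratio of 1 either way for all 45 genes (100%), against 94% of all tested genes. It lay within 0.5 either way for 39 of them (86.7%), against 67.5%. The interval does not cover the choice of normalization. With each array only centred on its median, the mean over the 45 genes was -0.35 and Psmd5 stood at -0.71.

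The log2 ratios of IUGR over control, meaned over the 4 arrays, ran from -0.42 for Psmd5 to 0.36 for Psmd3. Of the 45 genes 21 lay above 0 and 24 below, with a median of -0.07, where the median of all tested genes was 0.01. The median size of the ratio was 0.11 for the proteasome genes and 0.14 for all tested genes. Within single arrays the proteasome ratios were also less spread than those of all genes. Their standard deviation across genes was 0.15, 0.30, 0.29 and 0.21 on arrays 1 to 4, and that of all tested genes was 0.24, 0.47, 0.50 and 0.29. Among the 2836 tested genes at least as bright as the median proteasome gene it was 0.27, 0.52, 0.51 and 0.31. For the 8 chaperonin genes described below it was 0.14, 0.27, 0.39 and 0.16. For the 9 COP9 signalosome genes it was 0.19, 0.24, 0.24 and 0.24, and for the 88 ribosomal protein symbols 0.20, 0.40, 0.41 and 0.26. A spread below that of all genes was therefore not particular to the proteasome. These spreads are descriptions of the arrays and were not tested.

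**Figure D1:**
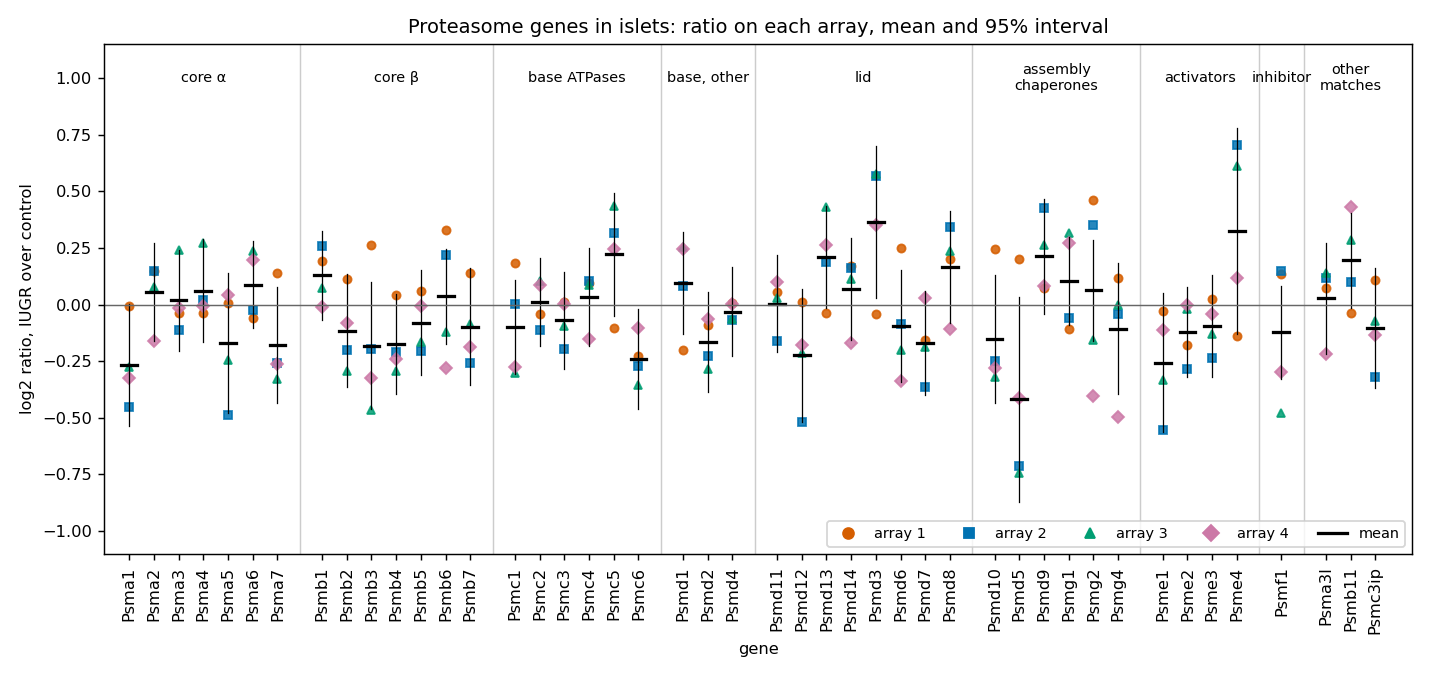
Log2 ratio of IUGR over control for each of the 45 proteasome genes, grouped by role, with 1 symbol per array, a thick bar at the mean of 4 arrays and a thin line for the 95% interval of the limma fit. In 39 of the 45 genes the arrays lie on both sides of 0, and only Psmd3 and Psmc6 have an interval that leaves out 0.

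The 7 alpha subunits form the outer rings of the core and the gate through which substrates enter. Psma1 gave log2 ratios of -0.01, -0.45, -0.27 and -0.32 over arrays 1 to 4, a mean of -0.26 ± 0.10 (SE, n = 4; limma adjusted p = 0.339). It was lower in IUGR on every array, with array 1 close to 0. Psma7 gave 0.14, -0.26, -0.33 and -0.26, with a mean of -0.18 ± 0.10. Psma5 gave 0.01, -0.49, -0.24 and 0.04, with a mean of -0.17 ± 0.12. In both, arrays 1 and 2 stood on different sides of 0. Psma2, Psma3, Psma4 and Psma6 had means between 0.02 and 0.09, so 4 of the 7 alpha genes lay above 0 and 3 below.

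Of the 7 beta subunits, Psmb5, Psmb6 and Psmb7 carry the catalytic sites, which cut after hydrophobic, acidic and basic residues respectively. Psmb5 had ratios of 0.06, -0.21, -0.16 and -0.01 on arrays 1 to 4, with a mean of -0.08 ± 0.09 (SE) and a 95% interval from -0.31 to 0.15. Psmb7 had ratios of 0.14, -0.26, -0.08 and -0.19, with a mean of -0.10 ± 0.10 and an interval from -0.36 to 0.16. Both were higher in IUGR on array 1 and lower on the other 3 arrays. Psmb6 had ratios of 0.33, 0.22, -0.12 and -0.28, with a mean of 0.04 ± 0.08 and an interval from -0.17 to 0.24. Its sign followed the dye, above 0 where IUGR was in Cy5 and below 0 where it was in Cy3. With loess, none of the catalytic genes had an interval that reached a log2 ratio of 0.5 in either direction. The choice of normalization is not covered by these intervals.

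The remaining beta subunits are structural. Psmb4 had ratios of 0.04, -0.21, -0.29 and -0.24, with a mean of -0.18 ± 0.08. Psmb3 had 0.26, -0.20, -0.46 and -0.33, with a mean of -0.18 ± 0.11. Psmb1 was the exception with 0.19, 0.26, 0.07 and -0.01, and a mean of 0.13 ± 0.08. Psmb2, Psmb3, Psmb4, Psmb5 and Psmb7 thus shared 1 order of signs, higher on array 1 and lower on arrays 2, 3 and 4, while Psmb1 and Psmb6 did not. Over all 45 genes, array 1 was opposite in sign to the other 3 arrays in 19 (42.2%), against 31.7% of all tested genes. In 13 of these 19 (28.9% of the 45) array 1 was the higher one, against 15.4% of all tested genes. In 6 (13.3%) it was the lower one, against 16.4%.

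The immunoproteasome subunits replace the catalytic beta subunits in cells exposed to interferon and in immune cells, and were set beside their standard counterparts. Psmb8, which replaces Psmb5, had ratios of 0.36, 0.03, -0.22 and -0.53. Psmb9, which replaces Psmb6, had 0.25, -0.31, -0.37 and -0.31. Psmb10, which replaces Psmb7, had 0.08, 0.13, -0.05 and 0.03. Their means were -0.09 ± 0.10, -0.19 ± 0.12 and 0.05 ± 0.07, and none was called (limma adjusted p of 0.623, 0.401 and 0.730).

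The 6 ATPases of the base unfold the substrate and push it into the core. Psmc6 had ratios of -0.23, -0.27, -0.36 and -0.10, with a mean of -0.24 ± 0.08 (limma adjusted p = 0.339). All 4 arrays lay below 0, and the levels of the 2 groups did not overlap. Its normalized log2 channel intensity was 8.92, 8.83, 9.01 and 8.85 in IUGR samples 1 to 4, and 9.06, 9.19, 9.21 and 9.11 in control samples 1 to 4. Psma1 was the other proteasome gene without overlap, with 12.53 to 12.80 in the IUGR samples and 12.81 to 13.05 in the controls. Groups without overlap were thus found in 2 of 45 proteasome genes (4.44%), against 3% of all tested genes.

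Psmc5 had ratios of -0.10, 0.31, 0.43 and 0.24, with a mean of 0.22 ± 0.10. Psmc1 had 0.18, 0.00, -0.30 and -0.27, with a mean of -0.10 ± 0.08. Each held both signs, with array 1 apart from arrays 3 and 4. Psmc2, Psmc3 and Psmc4 had means of 0.01, -0.07 and 0.03. The 6 ATPases assemble into 1 ring, and 3 of them lay above 0 and 3 below.

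The 3 base subunits without ATPase activity lay on both sides of 0. Psmd2, a scaffold on which ubiquitin receptors dock, had ratios of -0.09, -0.23, -0.28 and -0.06, a mean of -0.17 ± 0.08, and lay below 0 on every array. Psmd1, the other large scaffold, had -0.20, 0.08, 0.25 and 0.25, with a mean of 0.09 ± 0.09. Psmd4 binds ubiquitin chains itself. Its ratios were 0.01, -0.07, -0.07 and 0.00, with a mean of -0.03 ± 0.08, and its SD over arrays of 0.04 was the smallest of the 45 genes.

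The lid removes ubiquitin from the substrate before degradation. Psmd14, its deubiquitinating enzyme, had ratios of 0.17, 0.16, 0.11 and -0.17, with a mean of 0.07 ± 0.09 and an interval from -0.16 to 0.29. Psmd3, a structural lid subunit, had -0.04, 0.57, 0.57 and 0.35. Its mean of 0.36 ± 0.13 was the highest of the proteasome genes, a fold of 1.29 with a 95% interval from 0.03 to 0.70 in log2 units (limma adjusted p = 0.339). Arrays 2, 3 and 4 were higher in IUGR and array 1 was near 0.

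The channel levels of Psmd3 overlapped between the groups. They were 10.25, 10.43, 9.74 and 10.27 in IUGR samples 1 to 4, and 10.47, 9.68, 9.70 and 9.38 in control samples 1 to 4. Control sample 1, which shared array 1 with IUGR sample 2, lay above every IUGR sample, and the other 3 controls lay below every one. Without array 1 the ratio of Psmd3 fitted with the dye term was 0.52, without array 2 it was 0.21, and in neither case was it called. Such a fitted ratio gives both dye orientations equal weight. It is not the plain mean of the arrays left, since the lone array of 1 orientation counts as much as the pair of the other. Psmd3 remained above 0 under all 19 processing alternatives, between 0.07 and 0.52. With outlying local backgrounds left out or kept as measured it was 0.27, and its unadjusted p no longer passed 0.05. Nor did that p pass with a normexp offset of 0, Agilent's processed signals, median centring or brightness as a covariate. It also failed with the replicate number as a block and without array 2, 3 or 4. Under the other alternatives the unadjusted p of Psmd3 passed 0.05.

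Psmd13 had ratios of -0.04, 0.19, 0.43 and 0.26, with a mean of 0.21 ± 0.09. Psmd12 had 0.01, -0.52, -0.21 and -0.18, with a mean of -0.22 ± 0.11. These lid subunits are partners in 1 subcomplex, and their means had opposite signs. The remaining lid genes Psmd6, Psmd7, Psmd8 and Psmd11 had means of -0.09, -0.17, 0.17 and 0.00, so that 5 of the 8 lid genes lay above 0 and 3 below.

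**Figure D2:**
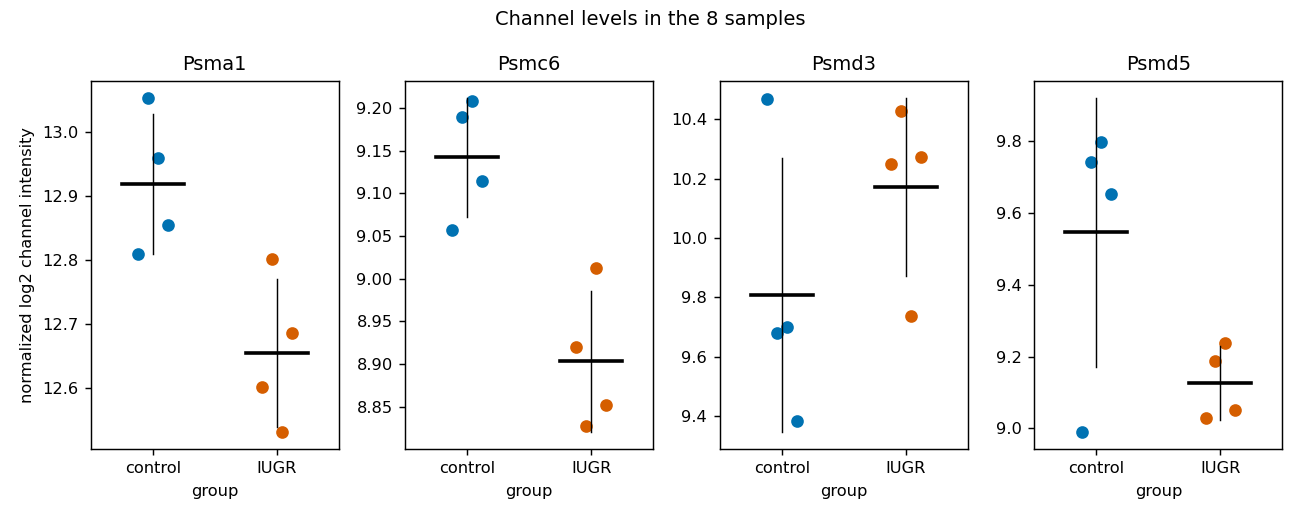
Normalized log2 channel intensity of Psma1, Psmc6, Psmd3 and Psmd5 in the 4 control and 4 IUGR samples, with the mean (thick bar) and SD (thin line), each gene on its own scale. Psma1 and Psmc6 do not overlap between groups, while in Psmd3 and Psmd5 control sample 1 lies with or beyond the IUGR samples.

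The core and the regulatory particle were compared because the complex needs both. The mean log2 ratio over the 14 core genes was 0.09, -0.13, -0.10 and -0.12 on arrays 1 to 4, or -0.06 over arrays (SD 0.10, n = 4). The mean over the 17 regulatory particle genes was 0.00, -0.01, 0.03 and 0.00, or 0.00 over arrays (SD 0.02, n = 4). The core was therefore higher than the regulatory particle by 0.09 on array 1 and lower by 0.11 to 0.13 on arrays 2, 3 and 4, with a mean difference of -0.07 and an SD of 0.10. That difference was smaller than the spread between arrays. On array 1, 10 of the 14 core genes lay above 0, and on array 4 only 2 did.

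The sign of the core difference on each array was also the sign of the brightness difference between the channels of that array, and the part of brightness in it was not tested. With brightness as a covariate the fitted difference was -0.01. Fitted with the dye term, it was -0.12 without array 1 and -0.02 without array 2. These fits weigh the dye orientations equally, so their values are not plain means of the arrays left. No p-value is given for the difference, since the particles were chosen with results of these arrays known.

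**Figure D3:**
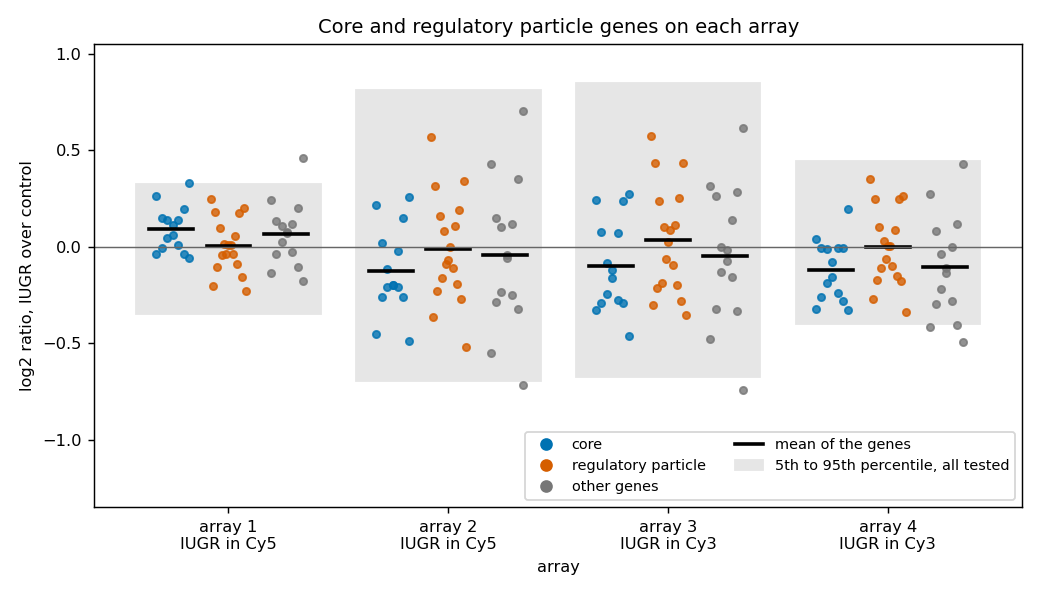
Log2 ratios of the core genes, regulatory particle genes and other proteasome genes on each array, with the mean of each group as a black bar and the 5th to 95th percentile of all tested genes in grey. The core mean is above the regulatory mean on array 1 and below it on the other 3 arrays, and 1 to 3 of the 45 genes per array lie outside the grey band.

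Assembly chaperones bring the subunits together and leave the finished complex. Psmd5, a chaperone of the base, had ratios of 0.20, -0.71, -0.74 and -0.41. Its mean of -0.42 ± 0.17 was the lowest of the proteasome genes (limma adjusted p = 0.339). Array 1 was above 0 and the other 3 arrays were below. Without array 1 the fitted ratio, which weighs the dye orientations equally, was -0.65 with a limma adjusted p of 0.0733. The fitted ratio was -0.19 when array 2 was left out and -0.14 when the brightness covariate entered the fit. With array 2 left out, array 1 alone counts as much as arrays 3 and 4 together, so this is not their plain mean. Its channel levels were 9.03 to 9.24 in the IUGR samples, 8.99 in control sample 1 and 9.65 to 9.80 in the other 3 controls.

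Psmd9, also a base chaperone, had ratios of 0.07, 0.43, 0.26 and 0.08, with a mean of 0.21 ± 0.10, and was the only proteasome gene above 0 on all 4 arrays. A second Psmd9 probe gave 0.22, 0.50, 0.13 and -0.04, with a mean of 0.20. Psmd10, the last base chaperone, had a mean of -0.15 ± 0.11. The core chaperones Psmg1, Psmg2 and Psmg4 had means of 0.11, 0.06 and -0.11. Psmg1 had ratios of -0.11, -0.06, 0.31 and 0.27, below 0 where IUGR was in Cy5 and above it in Cy3. Such a split of signs by dye was found in 7 of the 45 genes (15.6%), against 16.2% of all tested genes. The dye term of the fit takes it out of the error.

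In all, 6 of the 45 genes (13.3%) had 1 sign on all 4 arrays, against 20.7% of all tested genes. Psmd9 was higher throughout (2.22%, against 11% of all genes). Psma1, Psmc6, Psmd2, Psme1 and Psme2 were lower throughout (11.1%, against 9.69%). The share of the 5 lower genes was close to that of all genes. They are an alpha subunit, an ATPase, a scaffold and both chains of 1 activator. Psma1 lay at -0.01 on array 1. Psme2 lay at -0.0025 on array 4, where its spots ran from -0.05 to 0.08.

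Activators open the gate of the core without ATP. Psme1 and Psme2, which together form the interferon-inducible activator, had ratios of -0.03, -0.55, -0.33 and -0.11 and of -0.18, -0.28, -0.02 and -0.0025. Their means were -0.26 ± 0.12 and -0.12 ± 0.08. Psme3, which forms the nuclear activator, had 0.02, -0.24, -0.13 and -0.04, with a mean of -0.10 ± 0.09. These 3 lay below 0, and in each of them array 2 was the lowest.

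Psme4, a large single-chain nuclear activator, went the other way. Its brighter probe gave -0.14, 0.70, 0.61 and 0.12, with a mean of 0.32 ± 0.17. A second Psme4 probe printed at 10 spots gave 0.29, 0.51, -0.07 and -0.11, with a mean of 0.15. The probes differed in sign on arrays 1, 3 and 4, so the gene's ratio depends on which of them is read.

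Psmf1 encodes an inhibitor of the core, and its probes also disagreed. The brighter one gave 0.13, 0.15, -0.48 and -0.30, with a mean of -0.12 ± 0.08. The dimmer one, whose sequence is given above and which did not stand for the gene, gave 0.07, 0.48, 0.25 and 0.09, with a mean of 0.22 ± 0.10. It was above 0 on all 4 arrays, whereas the brighter probe changed sign with the dye. Neither probe was called. The Psmg4 probes, by contrast, both lay below 0, at -0.11 and -0.20.

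The last 3 genes match the symbol pattern but are not standard subunits. Psmb11, a core subunit known from the thymus, had ratios of -0.04, 0.10, 0.28 and 0.43 and a mean of 0.19 ± 0.08 with its brighter probe. A second Psmb11 probe was well above background in 0 of 8 channels and was not tested, the only proteasome probe of 50 for which this was so. The brighter Psmb11 probe was itself the dimmest probe used, with a mean log2 intensity of 7.24. Whether its signal comes from Psmb11 or from other transcripts that bind this stretch was not tested. Psmc3ip, a recombination factor and not a proteasome subunit, had 0.11, -0.32, -0.07 and -0.14, with a mean of -0.11 ± 0.10. Psma3l, a near copy of Psma3, had 0.07, 0.12, 0.14 and -0.22 and a mean of 0.03 ± 0.09. Its probe lies close to that of Psma3 on chromosome 6 of rn4, and signal shared between Psma3 and Psma3l cannot be told apart.

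Repeat spots of a probe differed less within an array than the probe did between arrays. In all, 7 proteasome probes were printed at 10 spots per array, and the median SD between their spots within an array was 0.03 to 0.04 in log2 units. The SD of the same probes between arrays was 0.11 to 0.30. For Psma5, the spots of array 2 ran from -0.52 to -0.45 and those of array 4 from -0.02 to 0.12. For Psmd6, array 1 gave 0.19 to 0.30 and array 4 gave -0.40 to -0.28. Repeat spots share 1 hybridisation and 1 probe sequence, so their spread covers the printing and reading of a spot only. It does not cover differences between probes of a gene, such as those of Psme4 and Psmf1.

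**Figure D4:**
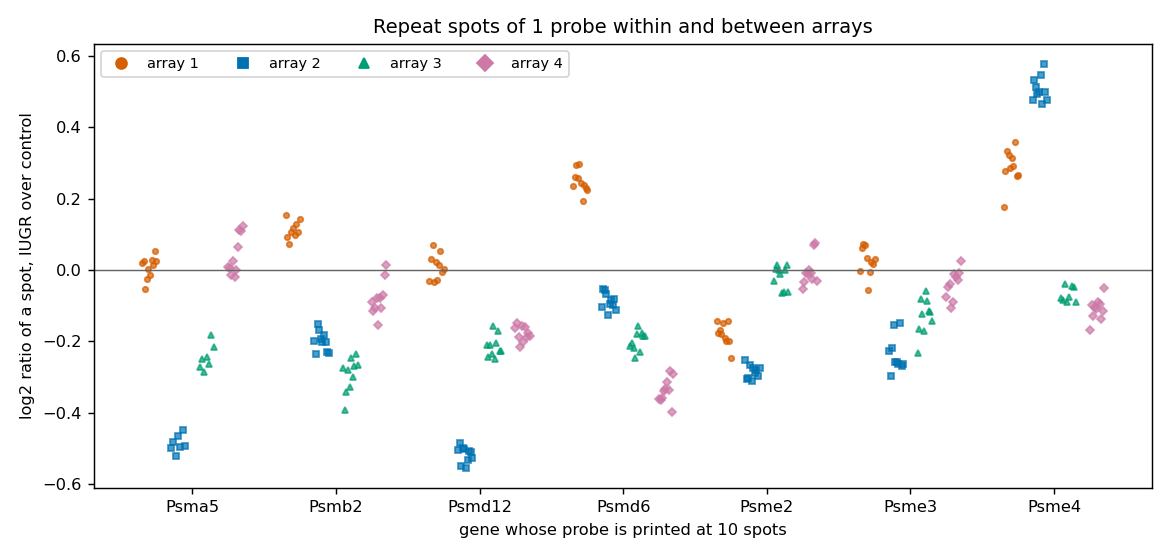
Log2 ratio of IUGR over control of each single spot for the 7 proteasome probes printed at 10 spots per array, with arrays side by side. Spots of 1 array lie close together, with a median SD of 0.03 to 0.04, and arrays lie apart, with an SD of 0.11 to 0.30.

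Promoters were read because proteasome subunit genes are known to share regulatory elements. Under proteasome shortage, the factor Nfe2l1 binds an antioxidant response element upstream of many of them, and the NF-Y complex binds CCAAT boxes. The letters TGACNNNGC, with N for any base, and CCAAT were searched on both strands in the 250 bases before each annotated start in RefSeq sequences of assembly GRCr8. Of the 45 genes 39 had an entry, and Psma3l, Psma7, Psmb11, Psmd6, Psmd12 and Psmd14 had none. TGACNNNGC was present in 7 of the 39 (17.9%), against 10.1% of 33469 promoters, and CCAAT in 19 (48.7%), against 34%. A match from 5 of the 7 genes is shown in capitals: 3 beta subunits, and 2 genes picked for their higher ratios. The ratio of 1 of these, Psme4, depends on the probe read. Not shown are Psma3 and Psmd1, with mean log2 ratios of 0.02 and 0.09.
Psmb2, chr5:144254978-144255010, plus strand: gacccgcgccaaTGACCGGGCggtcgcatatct
Psmb5, chr15:32047419-32047451, minus strand: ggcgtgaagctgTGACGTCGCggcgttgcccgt
Psmb6, chr10:55737852-55737884, plus strand: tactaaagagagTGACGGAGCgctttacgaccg
Psmd9, chr12:39018321-39018353, minus strand: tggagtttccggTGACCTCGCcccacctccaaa
Psme4, chr14:108706576-108706608, plus strand: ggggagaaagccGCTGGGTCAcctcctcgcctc
In Psmb2 the last base of a CCAAT box is the first base of the match, and in Psme4 the match is on the opposite strand. The median log2 ratio was 0.04 over the 7 genes with TGACNNNGC and -0.10 over the 32 without, with overlapping ranges. It was -0.10 over the 19 genes with CCAAT and 0.02 over the 20 without. A match describes these letters only, and the difference was not tested.

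The factors known to act on these promoters were read from their own probes. Nfe2l1 itself had a mean log2 ratio of 0.05 ± 0.08 (limma adjusted p = 0.751). Ngly1, the glycanase that activates it, had -0.35 ± 0.13 (limma adjusted p = 0.339). Ddi2, the protease that cleaves it, had 0.14 ± 0.11. Nfe2l2, which binds the same element under oxidative stress, had ratios of 0.07, -0.99, -0.70 and -0.36 and a mean of -0.49 ± 0.19 (limma adjusted p = 0.339). Of the 9 tested genes of this list 5 lay above 0 and 4 below, and none was called.

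Parts and partners of the proteasome that carry other names gave a similar account. None of them, the parts included, was counted among the 17 regulatory particle genes. Of 9 tested parts and partners 3 lay above 0 and 6 below, with a median of -0.07. Akirin2, which carries proteasomes into the nucleus, had 0.23 ± 0.10, and the ubiquitin receptor Adrm1 had -0.17 ± 0.09. Among 21 tested genes of ubiquitin supply and shuttling 10 lay above 0 and 11 below. Rps27a, which encodes ubiquitin fused to a ribosomal protein, had 0.37 ± 0.12. It was above 0 on all 4 arrays and passed an unadjusted p of 0.05, with a limma adjusted p of 0.339.

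Complexes of comparable build were set beside the proteasome. The 8 chaperonin genes had a median of -0.01, with Cct3 at 0.16 ± 0.09 and Cct8 at -0.26 ± 0.14. The 9 genes of the COP9 signalosome, a relative of the lid, had a median of 0.05, with Cops7a at 0.23 ± 0.08 and Cops7b at 0.27 ± 0.11. The 88 tested genes with a ribosomal protein symbol had a median of -0.01. That symbol pattern also takes in kinase genes such as Rps6ka2 at 0.49 ± 0.12, beside Rpl10a at -0.35 ± 0.09. Intervals within 0.5 either way were found for 77.3% of the ribosomal genes, for 5 of 8 chaperonin genes and for 8 of 9 COP9 genes, beside 86.7% of the proteasome genes.

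One processing choice moved all proteasome genes at once. The values above use loess, which takes out the part of a ratio that follows spot brightness. With each array only centred on its median, the mean over the 45 genes was -0.35 instead of -0.03, and 43 of them lay below 0, all but Psmb11 and Psmd3. The median of all tested genes was then -0.05, so most of the shift was relative to it. The median over the tested genes at least as bright as the median proteasome gene was -0.34 under the same choice, and that of the ribosomal genes was -0.40. The proteasome genes thus stood where other bright genes stood. The core and the regulatory particle both moved, to -0.42 and -0.32, and none of the 45 genes was called.

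**Figure D5:**
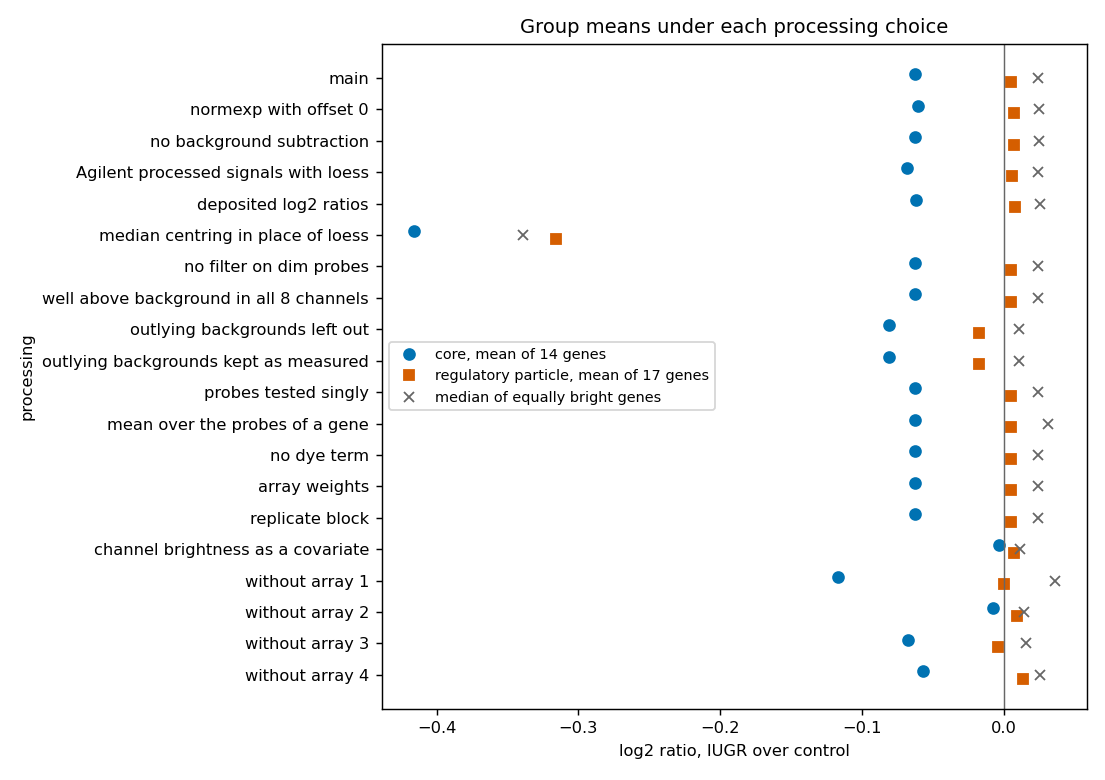
Mean log2 ratio of IUGR over control for the core and the regulatory particle under the processing used (main) and 19 alternatives, with the median of the tested genes at least as bright as the median proteasome gene. Median centring moves all of them to between -0.42 and -0.32, and the core differs from the regulatory particle by -0.01 with the brightness covariate and by -0.02 without array 2.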

How the data were processed

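The proteasome genes and all gene lists were chosen with earlier results of these data known. The deposited scanner files hold signal and background intensity per spot, extracted with Agilent Feature Extraction 10.10.1.1 per the file headers. The deposited value table holds log2 ratios of Cy5 over Cy3, whose direction and scale were found by comparison with the scanner values (r from 0.986 to 0.998), while their normalization is not stated. The submitters' processing notes name limma. From the intensities, R 4.3.3 and limma 3.58.1 were used. Background was corrected with normexp (offset 50), outlying local backgrounds took the array median, and each array was normalized by loess. Control spots had weight 0 and feature outliers were left out. Repeat spots were averaged and the brightest probe stood for a gene, with every ratio given as IUGR over control. Genes were tested when measured on all 4 arrays and well above background in at least 2 of 4 channels of either group. The fit held a dye term, and left 2 residual and 2.76 prior degrees of freedom. The SE is that of this fit. Channel levels are loess values with Aquantile scaling. The number of arrays limits the precision.

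Genes named with 4 array ratios were the 3 of each role with the smallest p, the catalytic subunits, Psmd14, Psmd4, the activators and Psmf1. From other lists, the 2 genes with the smallest p were named, except 1 that is not reported here. Of the 50 probes, 45 matched RefSeq GRCr8 by accession, all under the same symbol. On simulated data for 20012 genes, the test called 52 of 100 genes with a true log2 ratio of 1 and 87 of 100 with 2, with 5 false calls. The noise drawn there was independent between genes, so these shares are not the power of the real test. There were 19 processing alternatives.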

Additional observations from a re-analysis of the deposited data

Results flagged for a closer look

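Among 56 sets of 4 array ratios checked, 4 had 1 array far from the others, judged by the gap to the nearest other array divided by the whole range. Chance marks about 1 in 20 such sets. For Psma7, array 1 at 0.14 stood apart from -0.33 to -0.26 on the other arrays, a share of 0.853. For the base chaperone Psmd10, array 1 at 0.24 stood apart from -0.32 to -0.25, a share of 0.874. For the ATPase Psmc4, array 4 at -0.15 stood apart from 0.08 to 0.11, a share of 0.919. For the core minus regulatory particle difference, array 1 at 0.09 stood apart from -0.13 to -0.11, a share of 0.920.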

How the results depend on the processing

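Under 19 alternatives, 0 proteasome genes were called in every case. Over all tested genes the count was 0 in 17 of them, 15 with median centring and 7 with channel brightness as a covariate. The mean over the proteasome genes was -0.35 with median centring against -0.03 as reported, and between -0.06 and -0.00027 with 1 array left out. The core minus regulatory particle difference was -0.12 to -0.02 with 1 array left out, and -0.10 with median centring. Values with 1 array left out come from fits with the dye term, which weigh the dye orientations equally. They are not plain means of the arrays left. Of the 45 genes 24 changed sign under at least 1 alternative: 19 did so under median centring, 10 of them there alone, and 14 under another alternative. At an unadjusted p under 0.05 there were 2 proteasome genes as reported, 11 without array 1 (31% of all tested genes passed), and 0 without array 2, 3 or 4 (4.67%, 2.32% and 10.7%). Without a filter on dim probes there were 5 (12.1% of all), without a dye term 4 (14.4%), and with Agilent's processed signals 1 (8.97%). There were 0 with a normexp offset of 0 (11.8%), median centring (5.84%) or the brightness covariate (7.18%). With outlying backgrounds left out or kept as measured there were 2, Psma1 and Psmc6 in place of Psmd3 and Psmc6, and 1475 and 1480 genes passed in all instead of 2738. The labels number the samples of both groups. Same-numbered samples, none of which shared an array, deviated together at r = -0.06, -0.29, 0.12 and -0.17. Samples on the same array did so at r = 0.09, 0.35, 0.28 and 0.10. Deviations were taken from the mean of each group, so these values depend on one another. They cannot decide whether the numbers pair samples, and the main fit did not use the numbers. With the replicate number as a block, 0 genes were called, the core minus regulatory particle difference was -0.07, and the proteasome mean was -0.03. At an unadjusted p under 0.05 the replicate block gave 1 proteasome gene (11.1% of all), Psmd5, which was not among the 2 reported. The low count of arrays limits every statement here, and no direction of a single proteasome gene is established by the test.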
